A study of Homo sapiens with 12 samples.

Results

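The genes described here are 10 members of the ATP-binding cassette (ABC) superfamily, taken as the rows of the deposited expression table whose symbol was ABCB1, ABCC1, ABCC3, ABCC4, ABCC5, ABCG2, ABCA1, ABCA3, ABCE1 or ABCF2. All 10 were found among the 27514 genes listed. RNA from 12 samples of IMR32 was sequenced. IMR32 is a line grown from a human neuroblastoma, with MYCN amplified. Its cells were given a control siRNA (siCtrl), one directed at the transcription factor gene MYCN (siMYCN), one directed at the transcription factor gene HAND2 (siHAND2), or both siRNAs together (the combined knockdown). There were 3 samples per group, all electroporated and harvested after 72 h in growth medium. The labels name a single siRNA per target, so effects of that siRNA on other transcripts cannot be told apart from loss of its target. They do not say whether the 3 samples of a group came from separate cultures, and p-values measure the spread between these samples only.

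ABC proteins bind and hydrolyse ATP through paired nucleotide-binding domains, and most of them use that energy to move a substrate across a membrane. In neuroblastoma they are known mainly for drug efflux, and expression of ABCC1, ABCC3 and ABCC4 has been linked to MYCN and to outcome. ABCA transporters move lipids, whereas ABCE1 and the ABCF proteins have no membrane domain and act on ribosomes. MYC family proteins bind DNA with MAX at the E-box CACGTG and at variants such as CACGCG, and HAND2 binds E-boxes of the general form CANNTG with E proteins.

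The DNA just before the start sites was examined because several of these genes moved together. RefSeq promoter windows (GRCh38.p14) were found for 8 of the 10 genes, 13 windows in all, and ABCC1 and ABCC3 had none. Each window was searched over the 250 bases before the start on both strands for the motif CACGTG, for the motif CACGCG, and for the motif CANNTG, of which the first is one form. The windows of ABCE1 (chr4:145098061-145098310, plus strand), ABCC4 (chr13:95301452-95301701, minus strand) and ABCF2 (chr7:151227206-151227455, minus strand) are shown as those of genes that fell after siMYCN. ABCA3 (chr16:2340729-2340978, minus strand) is shown because it rose, and ABCA1 (chr9:104928156-104928405, minus strand) because it holds CACGTG and was hardly expressed. Capitals mark every match to CANNTG, or on either strand to the motif CACGCG.
ABCE1: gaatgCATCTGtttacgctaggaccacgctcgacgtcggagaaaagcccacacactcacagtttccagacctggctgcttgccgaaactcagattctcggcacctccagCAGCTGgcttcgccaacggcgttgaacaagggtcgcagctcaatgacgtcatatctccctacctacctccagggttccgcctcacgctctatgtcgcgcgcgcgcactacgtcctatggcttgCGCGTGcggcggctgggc
ABCC4: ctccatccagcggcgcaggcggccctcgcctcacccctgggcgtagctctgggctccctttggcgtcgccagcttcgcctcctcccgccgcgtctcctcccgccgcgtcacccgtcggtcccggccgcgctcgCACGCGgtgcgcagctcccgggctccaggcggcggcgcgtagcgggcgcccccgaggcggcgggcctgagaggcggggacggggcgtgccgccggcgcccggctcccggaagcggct
ABCF2: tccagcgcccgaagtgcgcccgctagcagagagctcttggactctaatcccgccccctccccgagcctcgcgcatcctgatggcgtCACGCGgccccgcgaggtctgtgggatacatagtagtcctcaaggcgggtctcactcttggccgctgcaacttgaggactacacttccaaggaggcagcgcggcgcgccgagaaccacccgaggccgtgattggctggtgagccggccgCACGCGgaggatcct
ABCA3: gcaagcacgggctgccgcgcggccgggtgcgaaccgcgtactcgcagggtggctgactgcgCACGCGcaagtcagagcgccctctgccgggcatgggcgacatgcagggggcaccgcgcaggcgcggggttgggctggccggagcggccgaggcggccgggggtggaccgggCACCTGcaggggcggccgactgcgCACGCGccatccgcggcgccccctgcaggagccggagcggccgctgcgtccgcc
ABCA1: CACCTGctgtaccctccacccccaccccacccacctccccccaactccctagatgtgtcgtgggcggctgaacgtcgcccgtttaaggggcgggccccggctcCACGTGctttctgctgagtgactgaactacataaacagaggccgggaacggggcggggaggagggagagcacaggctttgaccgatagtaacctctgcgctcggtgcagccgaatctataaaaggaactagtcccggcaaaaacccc
CACGCG occurred before 4 of the 8 genes, once each in ABCE1 and ABCC4 and in 2 places each in ABCF2 and ABCA3. Counted by window, 4 of the 13 held it, and 9.72% of all 35116 windows did. Of these windows 3 were rich in G and C, at 66.4% in ABCF2, 79.2% in ABCA3 and 80.4% in ABCC4 against a median of 58.0%. That of ABCE1, at 60.0%, was near the median. The part of base composition in these matches was not tested. CACGTG, present in 6.345% of all windows, was found in 3 of the 13, that of ABCA1, 147 bases before the start, and 2 overlapping windows of ABCG2 that share 1 site. CANNTG, present in 61.8% of all windows, was found in 7 of the 13 and was not found before ABCC4, ABCC5 and ABCF2. A match is a description of letters and does not show that a factor binds there.

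Depth, estimated from the CPM (read counts scaled to the total reads of the sample) worth of 1 read, was 31.6 to 64.2 M reads per sample. The share of reads in listed genes was 65.1% ± 0.736 (SD, n = 3) for siCtrl, 62.4% ± 0.979 for siMYCN, 59.4% ± 2.39 for siHAND2 and 51.4% ± 7.04 for the combined knockdown, where replicate 3 stood lowest at 44.3%. With CPM scaled to every read of a sample, this share moves the level of every gene, and each difference was also computed after rescaling each sample by the median over genes of its ratio to the geometric mean of all samples. On the log2(CPM + 1) scale the median difference from siCtrl over the 12680 genes tested was 0.006 after siMYCN, −0.14 after siHAND2 and −0.28 after both siRNAs, and 0.014, 0.012 and 0.045 after rescaling. The rescaled medians are small by construction, and a shift shared by most genes is removed on that scale. MYCN stood at 67.5% of its siCtrl level in siMYCN, 84.1% after siHAND2 and 47.7% in the combined knockdown, and HAND2 at 136%, 26.0% and 30.7%. After rescaling these levels were 68.0%, 93.9% and 61.0% for MYCN and 137%, 29.1% and 39.2% for HAND2. Between the combined knockdown and siMYCN, MYCN differed by −0.51 on the log2 scale (limma adjusted p 7.0e-04). Rescaled, that difference was −0.16 and was not called (limma adjusted p 0.054). MYCN in siHAND2 was not called (−0.25 on the log2 scale, limma adjusted p 0.086). HAND2 was called higher in siMYCN (0.44, limma adjusted p 0.0062). Between the combined knockdown and siHAND2, HAND2 differed by 0.23 and was not called (limma adjusted p 0.13). Rescaled, HAND2 was called higher in the combined knockdown than in siHAND2 (0.43, limma adjusted p 0.0016). Both genes overlap a gene listed on the other strand, MYCNOS and HAND2-AS1. Of 7 neuroblastoma markers 6 had a mean of at least 1 CPM, TH being the exception, and they summed to 415 to 429 CPM in siCtrl, 524 to 556 in siMYCN, 419 to 472 in siHAND2 and 365 to 552 in the combined knockdown. Of 5 fibroblast markers only COL1A1 reached that mean, and their sum was 7.20 to 9.14 CPM in siCtrl, 6.31 to 7.36 in siMYCN, 1.29 to 1.99 in siHAND2 and 0.976 to 1.28 in the combined knockdown. The 4 endothelial markers summed to 0.937 to 1.23 CPM in siCtrl, 2.45 to 3.14 in siMYCN, 0.950 to 1.95 in siHAND2 and 1.34 to 2.07 with both siRNAs. The 3 Schwann markers summed to 1.17 to 1.40 CPM in siCtrl, 2.08 to 2.64 in siMYCN, 1.38 to 1.85 in siHAND2 and 1.76 to 2.38 with both. Of the fibroblast markers DCN, and of the endothelial markers PECAM1, had under 0.1 CPM in every sample. The other endothelial markers averaged, in siCtrl and siMYCN, 0.490 and 1.40 CPM for CDH5, 0.179 and 0.973 for VWF, and 0.368 and 0.321 for CLDN5. The highest sum was 0.157 CPM for 4 leukocyte markers and 0.467 CPM for 3 epithelial markers. The part of these shifts in the results below was not tested. In bulk RNA, fewer cells of a type and less RNA per cell cannot be told apart.

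Expression divided the 10 genes into 6 with a mean of at least 1 CPM, which were tested, and 4 below it. In siCtrl, relative to the summed exon length, ABCE1 was highest at 47.7 CPM per kb, followed by ABCF2 at 18.3, ABCC1 at 9.94, ABCC4 at 7.88, ABCA3 at 5.56 and ABCC5 at 2.15. Estimated reads for these 6 genes ranged from 702 to 10817 per sample. Among them, siMYCN lowered ABCC4, ABCE1, ABCF2 and ABCC1 and raised ABCA3, siHAND2 lowered ABCE1 and raised ABCC5, and the combined knockdown lowered ABCE1, ABCC4, ABCF2 and ABCC1 and raised ABCC5. Calls are at a Benjamini-Hochberg adjusted p under 0.05 over all genes tested with limma. Of the 6 genes, 5 were called in siMYCN, 2 after siHAND2 and 5 in the combined knockdown, beside 33.7%, 42.7% and 67.4% of all genes tested. In the direction of decrease the counts were 4, 1 and 4, where 16.3%, 30.4% and 50.1% of all genes tested were called lower. The 1 gene called higher each time stood beside 17.4%, 12.3% and 17.4% of all genes. The 6 genes had median differences of −0.37, −0.04 and −0.74, and of −0.36, 0.12 and −0.38 after rescaling. Rescaled, 5, 4 and 6 of them were called, beside 47.9%, 50.8% and 70.7% of all genes. On that scale 22.5%, 24.9% and 33.0% of all genes were called lower and 25.4%, 25.9% and 37.7% higher.

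**Figure D1:**
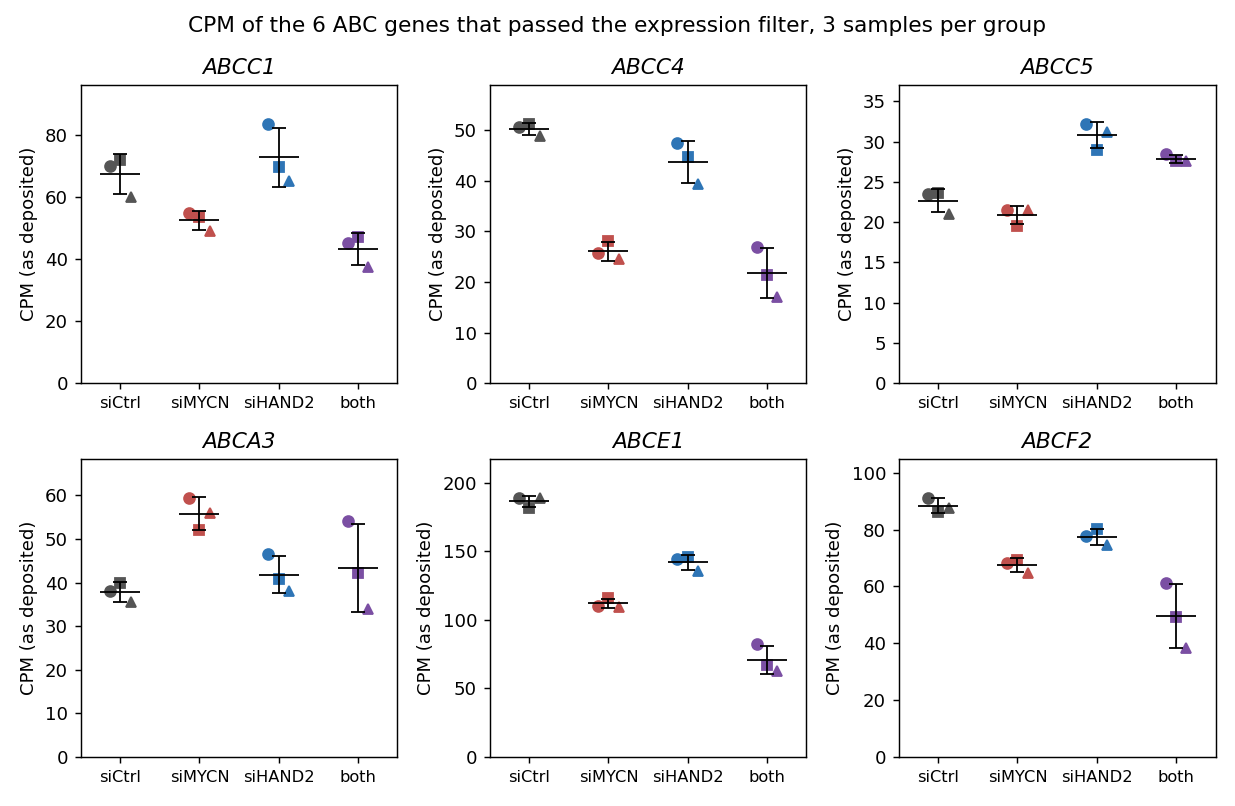
CPM as deposited (vertical axes, from 0) of the 6 tested ABC genes in the 4 groups, with "both" for the combined knockdown. Circles, squares and triangles are replicates 1, 2 and 3, and bars are the mean ± SD of 3 samples. ABCE1 levels in siCtrl, siMYCN, siHAND2 and the combined knockdown do not overlap, whereas the combined knockdown samples of ABCA3 spread from 34.0 to 54.0 CPM.

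The drug exporters of the ABCC subfamily are described first. ABCC4, also called MRP4, exports cyclic nucleotides, prostaglandins and nucleotide-analogue drugs, and lies on chromosome 13 at 95672083 to 95953701 (hg19, minus strand). It had 50.6, 51.2 and 48.8 CPM in siCtrl replicates 1 to 3, and 25.6, 28.1 and 24.4 CPM in siMYCN. It had 47.4, 44.6 and 39.3 CPM in siHAND2 and 26.8, 21.4 and 17.1 CPM in the combined knockdown. All samples with the MYCN siRNA lay far below all samples without it, and the siHAND2 samples lay just below the siCtrl samples. The siMYCN level was 51.9% of siCtrl, a log2 difference of −0.92 (SE 0.13, limma adjusted p 4.7e-06). In the combined knockdown it was 43.4%, a difference of −1.19 (SE 0.13, limma adjusted p 1.0e-08). The siHAND2 difference was −0.20 with a 95% interval from −0.46 to 0.07 (limma adjusted p 0.22), and −0.04 after rescaling. In siMYCN relative to siHAND2 the log2 difference was −0.72 (SE 0.13, limma adjusted p 9.0e-05). Adding the HAND2 siRNA to the MYCN siRNA gave −0.27 (limma adjusted p 0.074), which was called without combined replicate 1 (−0.42, adjusted p 0.0021) and changed sign after rescaling (0.07, adjusted p 0.42). A small nucleolar RNA gene, SNORD13G, lies within ABCC4 on the other strand.

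ABCC1, or MRP1, exports glutathione conjugates and anticancer drugs such as vincristine and etoposide. It lies on chromosome 16 at 16043434 to 16236931 (plus strand), where LOC100288162 overlaps it on the other strand and several microRNA genes are listed within it. Its levels were 69.9, 72.1 and 60.0 CPM in siCtrl and 54.8, 53.6 and 49.0 CPM in siMYCN. They were 83.6, 69.6 and 65.3 CPM in siHAND2 and 45.1, 47.3 and 37.4 CPM in the combined knockdown. Both groups with the MYCN siRNA lay below siCtrl without overlap, and siHAND2 overlapped siCtrl. ABCC1 fell by 0.35 on the log2 scale in siMYCN (SE 0.12, limma adjusted p 0.029) and by 0.63 in the combined knockdown (SE 0.12, limma adjusted p 7.1e-05), where it fell by 0.28 after rescaling (adjusted p 0.011). The call in siMYCN was lost without a filter on low values (adjusted p 0.10), without siCtrl replicate 1 or 2 (0.11 and 0.12) and without siMYCN replicate 1, 2 or 3 (0.051, 0.066 and 0.13). It held after rescaling (−0.34, adjusted p 0.0050) and with replicate number in the fit (limma adjusted p 0.0071). In siHAND2 the difference was 0.11 with an interval from −0.14 to 0.36, and rescaling gave a called rise of 0.27 (adjusted p 0.020). ABCC1 differed between the single knockdowns, by −0.46 in siMYCN relative to siHAND2 (SE 0.12, limma adjusted p 0.0049). The combined knockdown relative to siMYCN gave −0.28 (limma adjusted p 0.053), called without combined replicate 1 (−0.31, 0.032) or 2 (−0.34, 0.041), and 0.07 after rescaling (adjusted p 0.54).

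ABCC5, or MRP5, exports cyclic GMP and fluoropyrimidine metabolites and is known in brain and nerve tissue. It lies on chromosome 3 at 183637724 to 183735749 (minus strand), where ABCC5-AS1 overlaps it on the other strand. It had 23.5, 23.6 and 21.0 CPM in siCtrl, 21.5, 19.6 and 21.5 in siMYCN, 32.2, 29.0 and 31.3 in siHAND2, and 28.5, 27.6 and 27.6 in the combined knockdown. Every sample with the HAND2 siRNA exceeded every sample without it. ABCC5 rose by 0.43 on the log2 scale in siHAND2 (SE 0.10, limma adjusted p 0.0019) and by 0.29 in the combined knockdown (SE 0.10, limma adjusted p 0.018), or by 0.58 and 0.63 after rescaling. Without siCtrl replicate 3 the combined difference was 0.23 and was no longer called (adjusted p 0.10). In siMYCN the difference was −0.11 with an interval from −0.33 to 0.10 (limma adjusted p 0.43). The combined knockdown exceeded siMYCN by 0.40 (SE 0.10, limma adjusted p 0.0021). Among the 3 tested drug exporters the direct comparison of siMYCN with siHAND2 was called for each, with ABCC1, ABCC4 and ABCC5 all lower in siMYCN. Over all 6 tested genes that comparison was called for 5, beside 35.0% of all genes tested, and after rescaling for all 6, beside 44.5%.

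Of the membrane lipid transporters, ABCA3 was expressed. ABCA3 loads phospholipid into lamellar bodies in lung and has been linked to drug sequestration in lysosomes of leukaemia cells. It lies on chromosome 16 at 2325879 to 2390748 (minus strand), with MIR6511B1 and MIR6511B2 listed within it on the same strand. Its levels were 38.0, 40.0 and 35.5 CPM in siCtrl, 59.5, 52.0 and 55.9 in siMYCN, 46.5, 40.8 and 38.1 in siHAND2, and 54.0, 42.2 and 34.0 in the combined knockdown. The siMYCN samples lay above all siCtrl and siHAND2 samples, and the combined knockdown overlapped siCtrl. ABCA3 rose in siMYCN by 0.55 on the log2 scale (SE 0.13, limma adjusted p 0.0023), to 147% of siCtrl. In siHAND2 the difference was 0.14 (interval −0.14 to 0.41) and was called after rescaling (0.29, adjusted p 0.0046). In the combined knockdown it was 0.17 (interval −0.10 to 0.44, limma adjusted p 0.26). There it was called after rescaling (0.52, adjusted p 1.8e-05) and without combined replicate 3, the sample with the lowest share of reads in listed genes (0.33, adjusted p 0.0091). Relative to siMYCN the combined knockdown was lower by −0.38 (limma adjusted p 0.017), a call that was lost without siMYCN replicate 1 (0.073) or combined replicate 3 (0.088), without a filter (0.11) and after rescaling (−0.03). siMYCN exceeded siHAND2 by 0.41 (limma adjusted p 0.018), which was lost without siMYCN replicate 1 or 3 or siHAND2 replicate 2 or 3 (0.051 to 0.082) and without a filter (0.12). That call held with replicate number in the fit (limma adjusted p 0.0029).

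ABCE1 gave the largest difference of the 6 tested genes in the combined knockdown. It is an iron-sulfur ATPase that splits ribosomes after termination so that their subunits can be reused, and it lies on chromosome 4 at 146019156 to 146050677 (plus strand), overlapping ANAPC10 on the other strand. Its levels were 189, 182 and 189 CPM in siCtrl, 110, 116 and 110 in siMYCN, 144, 146 and 136 in siHAND2, and 82.6, 67.2 and 62.8 in the combined knockdown. The 4 groups followed one another without overlap in the order siCtrl, siHAND2, siMYCN, combined knockdown. Against siCtrl, ABCE1 fell by 0.73 on the log2 scale in siMYCN (SE 0.11, limma adjusted p 2.0e-05), by 0.39 in siHAND2 (SE 0.11, limma adjusted p 0.0072) and by 1.39 in the combined knockdown (SE 0.11, limma adjusted p 6.6e-11). These levels were 60.1%, 76.1% and 38.0% of siCtrl, and 60.5%, 85.0% and 48.5% after rescaling. The combined knockdown was lower than siMYCN by −0.66 and lower than siHAND2 by −1.001 (limma adjusted p 2.7e-05 and 3.4e-07). Between the single knockdowns, siMYCN was lower by −0.34 (limma adjusted p 0.023), a call that was lost without siMYCN replicate 1, 2 or 3 or siHAND2 replicate 1 or 2 (adjusted p 0.053 to 0.087). That call strengthened after rescaling (−0.49, adjusted p 4.2e-06) and held with replicate number in the fit (limma adjusted p 0.011).

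ABCF2 is a soluble ATPase of the family that includes translational regulators, and its own role in human cells is less well described. It is on the minus strand of chromosome 7, from 150904923 to 150924461, and overlaps no other listed gene. Its levels were 91.2, 86.0 and 87.7 CPM in siCtrl, 68.3, 69.2 and 64.7 in siMYCN, 77.7, 80.2 and 74.5 in siHAND2, and 61.1, 49.2 and 38.5 in the combined knockdown. No group overlapped another, and the combined knockdown samples were the most spread. ABCF2 fell in siMYCN by 0.39 on the log2 scale (SE 0.13, limma adjusted p 0.021) and in the combined knockdown by 0.84 (SE 0.13, limma adjusted p 2.3e-06), where rescaling gave −0.49 (adjusted p 2.9e-06). The siMYCN call was lost without a filter on low values (adjusted p 0.11) and without siCtrl replicate 1 or 3 or siMYCN replicate 1 or 3 (adjusted p 0.053 to 0.084). It held after rescaling (−0.37, adjusted p 1.1e-04) and with replicate number in the fit (limma adjusted p 0.0056). In siHAND2 the difference was −0.19 (interval −0.45 to 0.08, limma adjusted p 0.24), and −0.03 after rescaling. In siMYCN relative to siHAND2 it was −0.20 (limma adjusted p 0.24), and it was called after rescaling (−0.35, adjusted p 2.6e-04). The difference between the combined knockdown and siMYCN, −0.46 (limma adjusted p 0.0035), was not called after rescaling (−0.12, adjusted p 0.11).

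**Figure D2:**
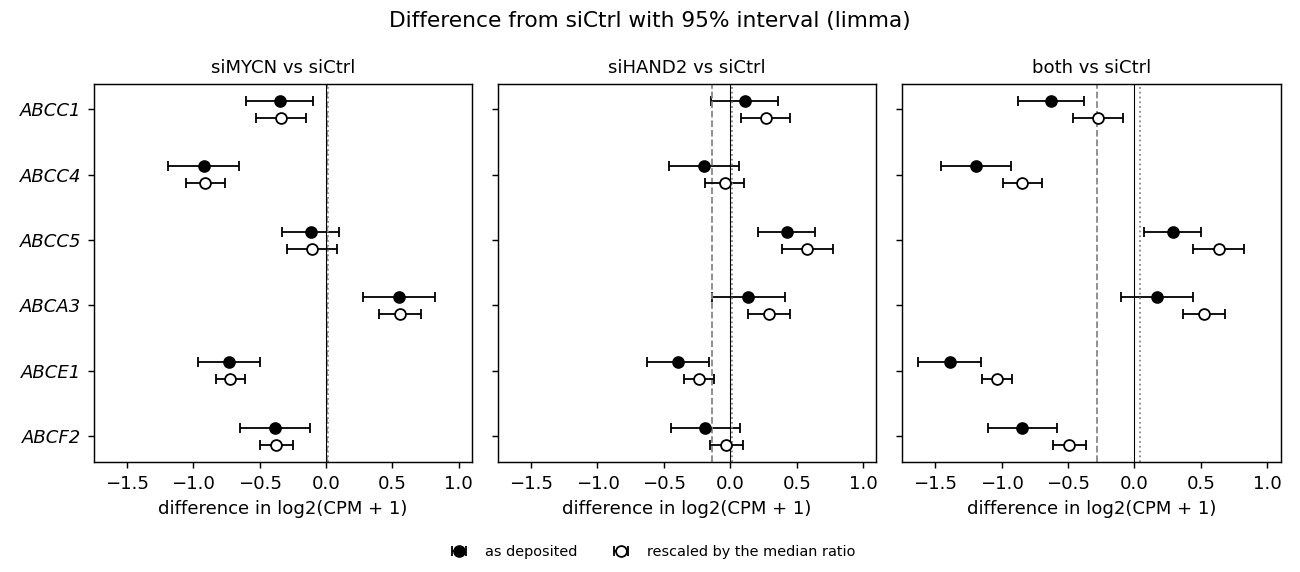
Differences from siCtrl in log2(CPM + 1) of the 6 tested genes with 95% intervals from limma, for siMYCN, siHAND2 and the combined knockdown ("both"). Filled points are values as deposited and open points values rescaled by the median ratio; dashed and dotted lines mark the median of all 12680 tested genes on each scale. The siMYCN values are nearly the same on both scales, and the combined values move to the right after rescaling, ABCE1 from −1.39 to −1.04.

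The joint effect of the siRNAs was read from the interaction, the combined difference minus the sum of the single differences. It was called for 0 of the 6 genes with limma, beside 4.01% of all genes tested. ABCA3 and ABCC1 had an unadjusted limma p under 0.05, a threshold at which the share of all genes was not computed. The estimates ran from −0.51 for ABCA3 (interval −0.90 to −0.13, adjusted p 0.12) to −0.03 for ABCC5 (interval −0.33 to 0.28), and ABCE1 had −0.27 (interval −0.60 to 0.06). After rescaling, ABCA3 had −0.33 (adjusted p 0.081), ABCE1 −0.08, and 0 were called beside 6.14% of all genes. Without combined replicate 1, in which the share of reads in listed genes was highest of its group, 3 were called: ABCA3 (−0.68, adjusted p 0.0056), ABCF2 (−0.43, 0.021) and ABCE1 (−0.38, 0.015). In that fit 4443 of the 12680 genes tested had a called interaction, against 508 with all samples. Set against siMYCN, the samples with both siRNAs differed for 4 of the 6 genes as deposited, beside 58.9% of all genes, and for 2 after rescaling, ABCE1 and ABCC5, beside 56.7%. Against siHAND2 it differed for ABCC1, ABCC4, ABCE1 and ABCF2, beside 40.3% of all genes tested, and all 4 were lower, as were 31.5% of all genes. After rescaling 5 were called, beside 49.7% of all genes, the fifth being ABCA3, which was higher (0.23, limma adjusted p 0.019).

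The other 4 genes were scarcely transcribed in any group. ABCB1 encodes P-glycoprotein, the multidrug exporter of the blood-brain barrier, and was listed at the constant that stands for 0 in 10 of the 12 samples. It had 3 estimated reads in siCtrl replicate 3 and 1 in siMYCN replicate 3. With 0 reads a sample still allows a level of up to 0.0468 to 0.0949 CPM, the worth of 3 reads, which covers counting error only. ABCG2, the breast cancer resistance protein, had 5, 2 and 6 reads in siCtrl, 1, 0 and 6 in siMYCN, 0, 2 and 0 in siHAND2, and 0, 0 and 1 in the combined knockdown. The siCtrl samples thus held 13 of its 23 reads, and the combined knockdown samples lay below them without overlap. That difference was −0.12 in log2(CPM + 1) and was not called when genes were not filtered (limma adjusted p 0.11).

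ABCC3, or MRP3, an exporter of bile acids and glucuronides, was present in all 12 samples at 0.030 to 0.228 CPM. Its estimated reads were 5, 10 and 5 in siCtrl, 2, 2 and 6 in siMYCN, 3, 1 and 5 in siHAND2, and 6, 4 and 3 in the combined knockdown, with overlapping ranges. ABCA1 moves cholesterol to apolipoprotein acceptors and had 1, 3 and 1 reads in siCtrl, 1, 3 and 1 in siMYCN, 1, 5 and 5 in siHAND2, and 5, 0 and 3 in the combined knockdown. Its group totals were 5, 5, 11 and 8 reads. For ABCC3 the adjusted p against siCtrl was 0.34 to 0.39 without a filter, and for ABCA1 it was at least 0.31. No difference was called for ABCB1, ABCC3, ABCG2 or ABCA1. With 1 added to such low CPM before the log, even a complete loss gives a small difference. That fit therefore cannot show that these genes were unchanged.

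**Figure D3:**
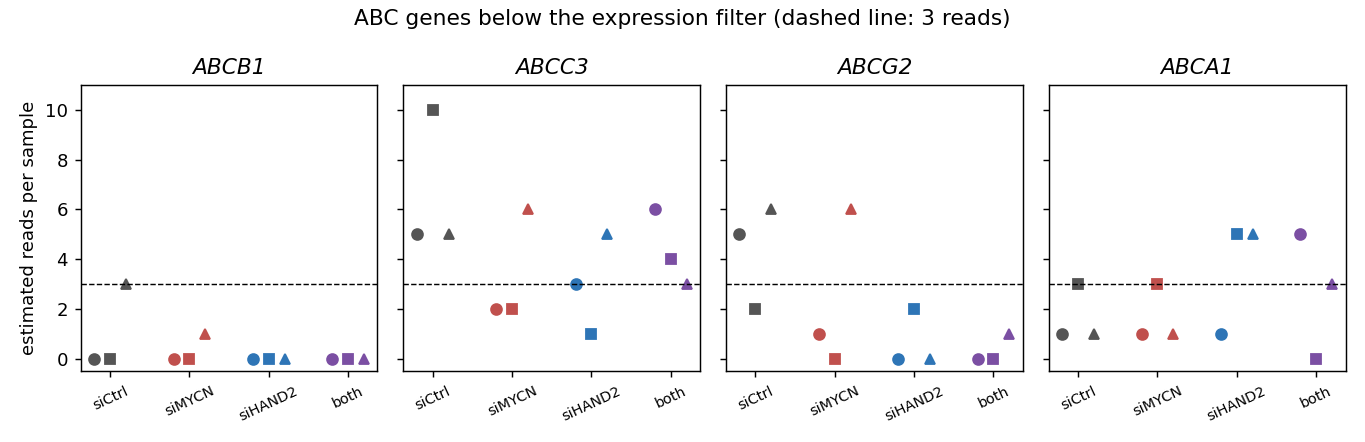
Estimated reads per sample (vertical axis, CPM divided by the worth of 1 read) of ABCB1, ABCC3, ABCG2 and ABCA1, with "both" for the combined knockdown and symbols for replicates 1 (circle), 2 (square) and 3 (triangle). The dashed line marks 3 reads. ABCB1 lies at 0 in 10 of the 12 samples, and no gene exceeds 10 reads in any sample.

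The remaining ABC genes were examined from a list of 38, of which 20 were tested. Their counts, and those of the lists that follow, stand against 17.4%, 12.3% and 17.4% of all genes called higher and 16.3%, 30.4% and 50.1% called lower in siMYCN, siHAND2 and with both siRNAs. In siMYCN 5 were higher and 3 lower, with a median difference of 0.14, beside −0.37 for the 6 genes above and 0.006 for all genes. ABCA7, a lipid transporter, rose by 1.03 and ABCC8, the sulfonylurea receptor, by 0.97, whereas ABCB6, a porphyrin transporter, changed by −0.62 and ABCC9, the other sulfonylurea receptor, by −0.52. Of the other ABCF genes, ABCF1 was also lower in siMYCN (−0.41, limma adjusted p 0.018), and ABCF3 was not called there (−0.14, limma adjusted p 0.38). ABCF1 was lower in siHAND2 as well (−0.43, limma adjusted p 0.011), where ABCF3 was not called (limma adjusted p 0.22). In siHAND2 6 were higher and 6 lower (median −0.11), the latter close to the share of all genes. ABCB10, a mitochondrial transporter needed for haem synthesis, showed the largest fall, from 27.4 ± 1.42 CPM (SD, n = 3) in siCtrl to 10.6 ± 0.96, a log2 difference of −1.29 (limma adjusted p 1.4e-09). It stood at 24.5 ± 2.38 CPM in siMYCN, where the difference of −0.16 was not called (limma adjusted p 0.30). ABCG1, a sterol exporter that acts with ABCA1, rose by 0.87 and ABCC9 by 0.75. ABCC9 thus moved in opposite directions in the single knockdowns, from 1.45 ± 0.34 CPM in siCtrl to 0.717 ± 0.25 in siMYCN and 3.11 ± 0.28 in siHAND2, and siMYCN differed from siHAND2 by −1.27 (limma adjusted p 5.4e-08). In the combined knockdown 7 were higher and 7 lower (median −0.07), led by ABCB6 at −1.57 and ABCB10 at −1.55 and by ABCA7 at 0.99 and ABCC8 at 0.83. After rescaling the counts were 7 higher and 4 lower, 8 and 5, and 10 and 5. These stand against 25.4%, 25.9% and 37.7% of all genes called higher and 22.5%, 24.9% and 33.0% lower on that scale. The rescaled medians were 0.14, 0.04 and 0.21, so that the last 2 changed sign. The 3 comparisons share the siCtrl samples.

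**Figure D4:**
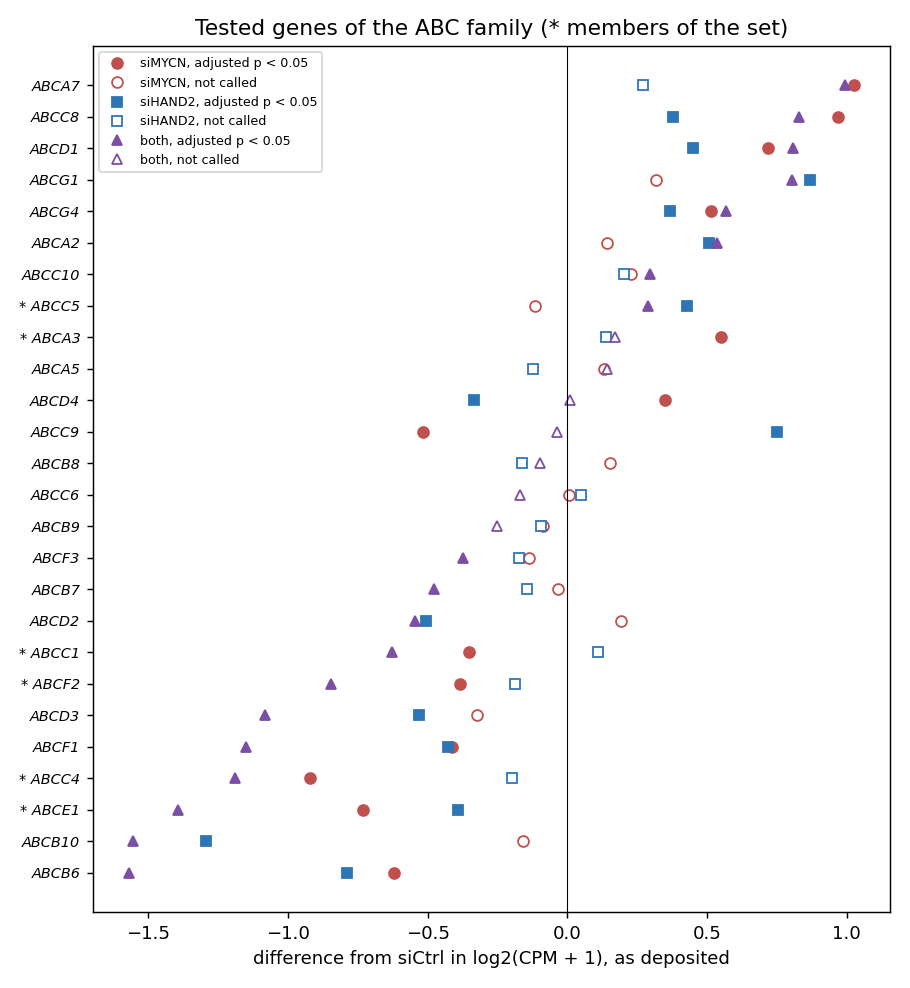
Differences from siCtrl in log2(CPM + 1) as deposited for the 26 tested ABC genes, ordered by the combined knockdown ("both"), with asterisks at the 6 genes described in detail. Circles are siMYCN, squares siHAND2 and triangles the combined knockdown, filled where the limma adjusted p was under 0.05. ABCE1 and ABCC4 lie near the lower end with ABCB6 and ABCB10, and ABCC9 has siMYCN and siHAND2 on opposite sides of 0.

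Genes that work with these transporters were followed in 5 further lists. Of 9 factors of ribosome recycling and rescue, which act with ABCE1, 5 fell in siMYCN, 3 after siHAND2 and 8 in the combined knockdown, and 0 rose (medians −0.34, −0.23 and −0.77), beside 16.3%, 30.4% and 50.1% of all genes called lower. The siHAND2 count is near that share. EIF3J, which assists ABCE1 in splitting ribosomes, went from 91.6 ± 2.00 CPM (SD, n = 3) to 64.2 ± 1.16, 71.6 ± 5.33 and 42.2 ± 8.77 in siMYCN, siHAND2 and the combined knockdown, differences of −0.51, −0.35 and −1.12 (limma adjusted p 0.0030, 0.027 and 2.2e-08). ETF1, the release factor, fell by 1.01 in the combined knockdown. Of 5 genes of the GCN and EIF2 pathway, in which a yeast ABCF protein acts, 3, 3 and 5 fell (medians −0.37, −0.46 and −0.90), with EIF2S1 and EIF2S2 at −1.09 and −1.01 in the combined knockdown. After rescaling, 6, 2 and 6 recycling factors and 4, 3 and 5 EIF2 pathway genes were lower, beside 22.5%, 24.9% and 33.0% of all genes, and 1 recycling factor, MCTS1, was higher in the combined knockdown.

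The sterol list, which includes the LXR and RXR receptors that control ABCA1, had 11 of 12 genes tested. LPCAT3 rose in siMYCN by 0.60, 4 genes fell in siHAND2 and 6 in the combined knockdown, shares near those of all genes, and in the last RXRA, a partner of the LXR receptors, fell by 1.08. Glutathione genes, which supply the co-substrate of ABCC1, had 11 of 13 tested, with 1, 7 and 8 lower and 0, 0 and 2 higher, where 16.3%, 30.4% and 50.1% of all genes were lower. GCLM, a subunit of the rate-limiting enzyme of glutathione synthesis, fell by 0.64 in siHAND2 and 1.16 in the combined knockdown. In the list of xenobiotic regulators 7 of 9 were tested, with 1 higher and 0 lower in siMYCN, 2 and 2 in siHAND2 and 2 and 4 in the combined knockdown. NFE2L2, a regulator of antioxidant genes, fell by 0.66 in siHAND2, and its inhibitor KEAP1 by 0.65 with both siRNAs, whereas PPARD, a lipid-sensing nuclear receptor, fell by 0.43 and 0.62. NFE2L2 also stood below siCtrl with both siRNAs, at 66.4% of its level. KEAP1 stood at 80.3% of siCtrl in siHAND2, where the 2 genes called lower were NFE2L2 and PPARD. MVP, the major vault protein, rose from 13.2 ± 0.93 CPM (SD, n = 3) in siCtrl to 39.0 ± 2.42 in siMYCN, 23.6 ± 2.14 after siHAND2 and 40.0 ± 11.9 in the combined knockdown, differences of 1.49, 0.79 and 1.49 (limma adjusted p 2.3e-08, 1.1e-04 and 1.9e-09). AHR, a receptor for aromatic xenobiotics, rose in siHAND2 by 1.38 and in the combined knockdown by 1.91 and was not called in siMYCN (0.15, limma adjusted p 0.41). After rescaling, the sterol genes were 3 higher and 0 lower in siMYCN, 1 and 4 in siHAND2 and 3 and 3 in the combined knockdown. The glutathione genes were then 1 and 3, 1 and 7, and 3 and 5, and the xenobiotic regulators 2 and 0, 2 and 2, and 3 and 3. Of all genes, 25.4%, 25.9% and 37.7% were then higher and 22.5%, 24.9% and 33.0% lower.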

How the data were processed

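The authors deposited a table of CPM with 1 column per sample and gene positions in hg19 (GRCh37). Per the submitters' processing notes, STAR 2.5.1 and Partek were used. Counting settings, strand use and annotation are not given in the sources used here. The authors' CPM values carry a constant of 0.0001, and listed ends mostly lie 1 base past the annotated end (7501 genes, against 817 with equal ends). Within 0.05 reads, 88.9 to 90.5% of values below 20 reads were whole multiples of 1 read, so differences were not tested on counts. Estimated reads, and the chi-square that follows, rest on the estimated worth of 1 read. Replicates differed by more than sampling noise (mean chi-square per gene 3.35 to 37.8).

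Values were analysed as log2(CPM + 1) where a gene averaged 1 CPM or more, with limma 3.58.1 (mean-variance trend) in R 4.3.3, fitted to the 4 groups together (8 residual degrees of freedom, two-sided). The function was tested on simulated data. Such differences understate changes of low genes. The named genes are the 10 members, both siRNA targets and, per list and knockdown, at most 2 called rises and 2 called falls. ABCB10 and AHR in siMYCN, NFE2L2 in the combined knockdown and KEAP1 in siHAND2 were named through another knockdown. MCTS1, ABCF1 and ABCF3 were chosen after their values were seen. Exon lengths came from GENCODE release 44 on GRCh37. Members and lists were chosen with earlier results of these data known. Same-numbered samples deviated together for siCtrl with siMYCN (correlations 0.15 to 0.44) and siMYCN with siHAND2 (0.14 to 0.33), so the numbers were taken to pair these groups. The main fit did not use this pairing. With a replicate block the limma adjusted p in siMYCN against siCtrl was 0.0071 for ABCC1, 6.7e-09 for ABCC4, 0.41 for ABCC5, 1.2e-04 for ABCA3, 5.8e-07 for ABCE1 and 0.0056 for ABCF2. In siMYCN against siHAND2 it was 5.2e-04, 9.7e-07, 5.0e-05, 0.0029, 0.011 and 0.16 in the same order. As alternatives, 0.1 replaced 1 as pseudocount, the filter was dropped or raised to 5 CPM, and the values were rescaled by the median ratio or the listed sum, with further fits using a replicate block, no trend or 1 sample fewer.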

Additional observations from a re-analysis of the deposited data

How the results depend on the processing

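Over the 6 tested genes and 7 comparisons, 840 values were recomputed under alternatives, and 764 kept their direction and their side of the threshold, 30 lost a call, 26 gained one and 20 changed sign. In all alternatives run, the calls against siCtrl held for ABCC4, ABCA3 and ABCE1 in siMYCN, ABCC5 and ABCE1 in siHAND2, and ABCC1, ABCC4, ABCE1 and ABCF2 in the combined knockdown. Without a filter on low values 3 of the genes were called in siMYCN, and 88 genes in all had a called interaction, against 508 with the filter. Rescaling by the median ratio or to the sum over listed genes, and the median ratio with the replicate block, each gave 4 called genes in siHAND2; the median ratio with or without the block gave 2 for the combined knockdown against siMYCN. The interaction was called for 779 genes with the median ratio, 795 with the listed sum, 1282 with the replicate block and 1262 with both; with the block, scaled or not, 1 was ABCA3 (limma adjusted p 0.030 as deposited). The median ratio with the block called 6480 genes in siMYCN, against 4273. The replicate block also made ABCC1 (limma adjusted p 0.021) and ABCC4 (0.033) called between the combined knockdown and siMYCN, where the numbers are not shown to pair the samples, and changed no other call of the 6 genes. Signs changed with the median ratio, alone or with the block, and with the listed sum: for the combined knockdown against siMYCN to 0.065 and 0.0044 for ABCC1 and 0.067 and 0.0071 for ABCC4, for the combined knockdown against siHAND2 to 0.054 and 0.071 for ABCC5, and for the interaction to 0.11 and 0.077 for ABCC4 and 0.16 and 0.13 for ABCC5. Leaving out 1 sample turned ABCA3 against siHAND2 to −0.029 (without siHAND2 replicate 3) and −0.13 (without combined replicate 1), within a range of −0.13 to 0.19, and the interaction to 0.027 and 0.0058 for ABCC5 (without siCtrl replicate 3 and siHAND2 replicate 1) and 0.085 for ABCC4 (without combined replicate 3), within ranges of −0.069 to 0.027 and −0.23 to 0.085. The cause was not tested. With 1 sample left out, genes called ranged from 3202 to 5756 in siMYCN, 4303 to 6941 in siHAND2, 7833 to 9340 in the combined knockdown, 6414 to 8960 for it against siMYCN, 3905 to 6962 against siHAND2, 3261 to 6082 for siMYCN against siHAND2, and 263 to 4443 for the interaction, the last without combined replicate 1. Of the 6 genes, 3 to 5, 2 to 2, 4 to 6, 3 to 6, 4 to 4, 3 to 5 and 0 to 3 were called in the same order. ABCB1, ABCC3, ABCG2 and ABCA1 were limited by depth, with at most 10 estimated reads per sample, and by the 1 added before the log.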
